A study of Capra hircus with 6 samples.

Results

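Among the genes that could be named in a table of 5154 genes from goat 8-cell embryos, 94 had a mean level after YBX1 knockdown of at least 2 times the mean of the controls and of at least 5 FPKM (fragments counted for a gene, relative to its length and to how many the library held). They were chosen by these measured values from the 456 genes of the table with a symbol, leaving out PATL2, so their higher level after knockdown is a description of the choice and no test was made of it. Symbols were taken from the study's list of skipped exon events that differed between the same groups, so the naming was itself selective. In all, 1368 of the 5154 genes (26.5%) met both thresholds. By the functions that their symbols name, 58 fell into a class, with the most genes from mitochondria (9 of 36 named), cilia and centrioles (7 of 11), the germline (7 of 10), transcription and chromatin (6 of 55) and ubiquitin (5 of 30). Over all named genes the share chosen was 20.6%, above that of the last 2 of these classes.

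The embryos were Capra hircus, cultured in vitro. Into the cytoplasm of zygotes the study injected 20 µM siRNA matching YBX1 or, for the controls, MISSION universal negative control siRNA, and it took embryos for sequencing at the 8-cell stage, 72 h after the injection. Each group had 3 libraries, made from pooled, directly lysed embryos with Smart-seq2, which amplifies cDNA from polyA RNA without molecular identifiers. The methods give 30 embryos of each kind in 3 replicates, which leaves unclear how many went into 1 library. Nothing states that the replicates came from separate cultures, so the spread between them may be technical. In pooled embryos, fewer cells with a transcript and less of it per cell cannot be told apart. The targeted gene was not among the named genes, so the labels were not checked against it here.

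YBX1 is a cold-shock domain protein that binds mRNA and takes part in its packaging, stability and translation. An early embryo first lives on mRNA and protein stored in the oocyte, and in the maternal-to-zygotic transition the stored mRNA is degraded while the embryonic genome becomes active.

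Depth was 10354990 fragments for control 1, 12192458 for control 2 and 11052666 for control 3, and for YBX1 knockdown libraries 1, 2 and 3 it was 12098896, 11203666 and 12688297. The median chosen gene was covered by 434, 410 and 488 fragments in the controls and by 1692, 1063 and 1663 fragments in the knockdown libraries, and the lowest value of any chosen gene in any library was 29 fragments. The 94 genes together took up 0.781%, 0.587% and 1.09% of the fragments of the controls (0.819% ± 0.254, SD, n = 3) and 2.86%, 2.35% and 3.01% of those of the knockdown libraries (2.74% ± 0.346, SD, n = 3). Every knockdown library lay above every control, and knockdown library 2 was the lowest of its group, as control 2 was of the controls.

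**Figure D1:**
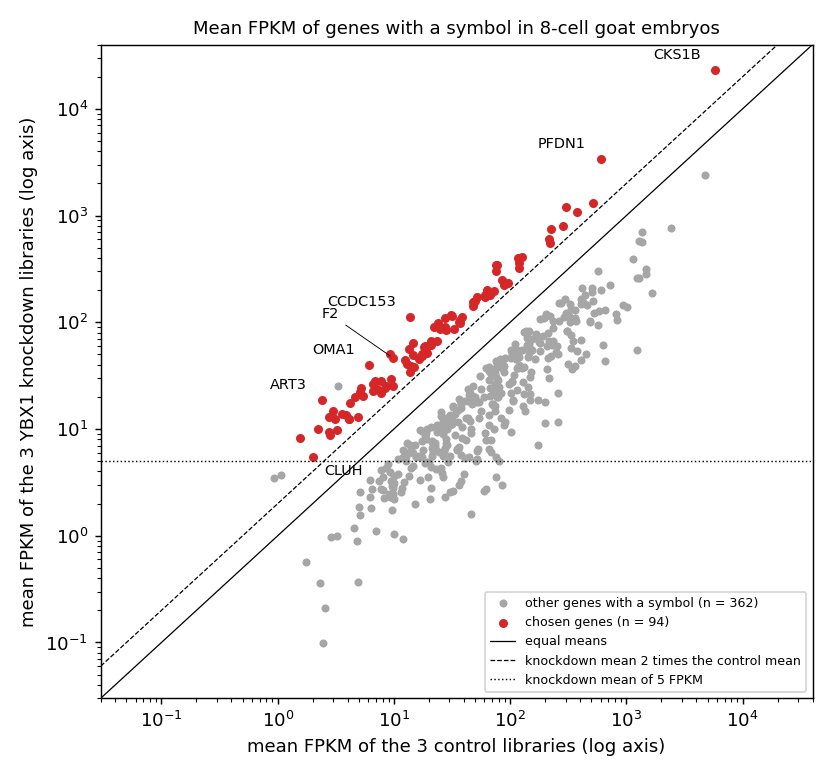
Mean FPKM of the 3 control libraries (horizontal, log axis) against the mean of the 3 YBX1 knockdown libraries (vertical, log axis) for the 456 genes with a symbol, the 94 chosen genes in red. No gene with a symbol lies between the line of equal means and the line of a ratio of 2, and the 3 grey points above that line are PATL2, SLX4 and PIK3CD.

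The ratio of means among the 94 genes ran from 2.47 to 8.03 with a median of 3.22, beside a median of 3.79 over the 1368 genes of the table that met both thresholds, of which 2 were at 0 in every control and have no ratio. It was at least 3 in 59 genes and at least 5 in 7. In 92 of the 94 genes every knockdown library was above every control, as it was in 1591 of all 5154 genes (30.9%), and because the same contrast chose the 94, nothing is read from that count. The mean after knockdown ranged from 5.47 to 23041 FPKM with a median of 60.8, and 35 genes reached 100 FPKM.

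Nothing lay close to the threshold of the ratio. The lowest chosen genes were PSMD12 at 2.47, TMEM225B at 2.48 and MFN1 at 2.50, and the named genes nearest under it included PTPN2 at 0.618 and GGNBP2 at 0.605. Over the whole table, 0 genes had a ratio between 1 and 2, since the table lists only genes that its authors called changed. At the threshold of 5 FPKM, the chosen genes with the lowest means were CLUH (5.47), AADACL3 (8.27) and TUB (8.78), and the named genes just under it with a ratio of 2 or more were SLX4 (3.74) and PIK3CD (3.46).

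Of the 11 named genes of cilia and centrioles, 7 were chosen, among them CCDC153, TUBE1, CNTROB, PIH1D2, TUB and CEP63. CCDC153, a coiled-coil protein of motile cilia, had the highest ratio of all the chosen genes. It measured 15.8, 4.49 and 21.3 FPKM in controls 1, 2 and 3, and 86.9, 55.5 and 192 FPKM in YBX1 knockdown libraries 1, 2 and 3, a ratio of means of 8.03. Library 3 was the highest and library 2 the lowest of each group, and the lowest knockdown library was 2.60 times the highest control. Without knockdown library 3, CCDC153 would not have the highest ratio. TUBE1, the epsilon-tubulin of centrioles, measured 17.0, 22.3 and 32.4 FPKM in the controls and 131, 50.8 and 113 FPKM after knockdown. Its groups did not overlap, although knockdown library 2 was well under the other two. CNTROB, which is found on daughter centrioles, measured 24.6, 16.3 and 33.6 FPKM in the controls and 92.6, 73.4 and 93.5 FPKM after knockdown, 3 close values far from the controls. PIH1D2 belongs to a family of assembly factors for dynein arms, and it measured 11.1, 10.9 and 15.7 FPKM in the controls and 49.3, 44.9 and 37.7 FPKM after knockdown. The knockdown libraries of PIH1D2 were again close to each other. TUB, which carries membrane proteins into cilia, and CEP63, which takes part in centriole duplication, had means after knockdown of 8.78 and 38.2 FPKM. The list also held genes that went down. By limma, 2 of its 11 genes (18.2%, beside 63.6% over all named genes) were lower after knockdown, IFT80, a subunit of intraflagellar transport, and PCM1, a protein of centriolar satellites. IFT80 measured 16.9, 30.8 and 15.8 FPKM in the controls and 10.03, 5.01 and 8.20 FPKM after knockdown, and both calls were lost when the libraries were scaled to an equal sum or by the median of ratios. Both scalings are computed from the genes of the table itself, most of which were lower, and raise every ratio, so here and below a call lost under them does not show that a gene was unchanged. Over all named genes 32.7% were lower with an equal sum and 23.7% with the median of ratios. These are the shares beside which the class counts under the scalings below are to be read. The call of IFT80 was also lost without control 2 or knockdown library 2, and that of PCM1 without control 1, control 2 or any 1 knockdown library. TMEM107 was called lower without control 1 and TUBD1 without control 3, so that the list held 0 to 3 lower genes with 1 library left out.

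Of the 36 named mitochondrial genes 9 were chosen, a share of 25% that lay near the 20.6% over all named genes. OMA1, a stress-activated protease of the inner membrane that cleaves the fusion protein OPA1, measured 7.60, 3.64 and 7.16 FPKM in the controls and 51.6, 26.7 and 41.7 FPKM after knockdown. Its lowest knockdown library was 3.52 times its highest control, the widest gap of the 94 genes. SFXN4, which is needed for the assembly of respiratory complex I, measured 122, 74.6 and 158 FPKM in the controls and 511, 276 and 293 FPKM after knockdown. Knockdown library 1 stood above the rest of its group. LETM2, a relative of the inner membrane protein LETM1, measured 18.8, 10.4 and 14.7 FPKM in the controls and 59.3, 54.7 and 35.5 FPKM after knockdown. SDHC, a membrane anchor of succinate dehydrogenase, measured 74.0, 38.3 and 68.8 FPKM in the controls and 157, 127 and 251 FPKM after knockdown. In both genes control 2 was the lowest library and the groups did not overlap. GRPEL1 of the mitochondrial import motor, the most abundant of the 9 chosen ones, measured 306, 158 and 179 FPKM in the controls and 538, 775 and 481 FPKM after knockdown, with knockdown library 2 the highest. The other 4 were TFB1M, which methylates the RNA of the small mitochondrial ribosomal subunit, the ribosomal protein MRPS23, the fusion protein MFN1, and CLUH, which binds mRNAs of mitochondrial proteins. Their ratios lay between 2.50 and 2.91. CLUH, the least abundant of the 94 after knockdown, measured 2.89, 1.14 and 2.04 FPKM in the controls and 4.08, 5.15 and 7.19 FPKM after knockdown, and without knockdown library 3 its mean fell below the threshold and 93 genes were left. The same list held 24 genes that were lower by limma (66.7%, beside 63.6% over all named genes), 16 with an equal sum, 12 with the median of ratios, and 18 to 26 with 1 library left out. Among them was TFB2M, the transcription factor related to TFB1M, with 52.2, 112 and 41.8 FPKM in the controls and 8.68, 3.66 and 5.79 FPKM after knockdown, so the pair moved in opposite directions. SLC25A33, a carrier of pyrimidine nucleotides, had the largest fall of the list on the log2(FPKM + 1) scale, from 148, 246 and 206 FPKM to 11.4, 18.0 and 24.8 FPKM.

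Germline and meiosis genes were chosen in 7 of 10 cases. H1-8, the linker histone of the oocyte, measured 252, 194 and 680.5 FPKM in the controls and 963, 1393 and 859 FPKM after knockdown. Control 3 was far above the other controls, and the groups were separate by a factor of only 1.26. GTF2A1L, the germ cell form of the large TFIIA subunit, measured 85.7, 65.6 and 199 FPKM in the controls and 415, 254 and 536 FPKM after knockdown. TDRD7, a tudor domain protein of germ cell RNA granules, measured 37.7, 17.7 and 39.5 FPKM in the controls and 115, 123 and 106 FPKM after knockdown. The knockdown libraries of TDRD7 were close together, while those of GTF2A1L were spread over a factor of 2.11. FOXR1, a forkhead protein of the oocyte, measured 23.7, 22.1 and 17.1 FPKM in the controls and 63.6, 86.0 and 51.4 FPKM after knockdown. The remaining 3 were TERB1, which fastens telomeres to the nuclear envelope in meiosis, the oocyte transcription factor LHX8, and STK31, a tudor domain protein of germ cells, with ratios of 2.93, 2.84 and 2.74. By limma, 2 genes of the list (20%, beside 63.6% over all named genes) were lower after knockdown, BRDT, a bromodomain protein of spermatogenesis, and HENMT1, which methylates small RNAs of the germline. BRDT measured 384, 402 and 168 FPKM in the controls and 53.4, 34.9 and 35.0 FPKM after knockdown. TAF4B, a subunit of TFIID that is enriched in gonads, did not pass, except without control 3, with 19.8, 13.6 and 8.67 FPKM in the controls and 7.70, 6.06 and 6.35 FPKM after knockdown.

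Both genes chosen from the 4 of protein folding act beside the chaperonin that folds tubulin and actin. PFDN1, a subunit of prefoldin, which hands unfolded chains to the chaperonin, measured 503, 418 and 879.7 FPKM in the controls and 3037, 2539 and 4597 FPKM after knockdown. PDCL3, a phosducin-like partner of the chaperonin, measured 59.96, 59.4 and 112 FPKM in the controls and 339, 190.0 and 496 FPKM after knockdown. Library 3 was the highest of each group in both genes. The other 2 genes (50%, beside 63.6% over all named genes) were lower by limma, TCP1, a subunit of the chaperonin itself, and DNAJC10, a chaperone of the endoplasmic reticulum. TCP1 measured 197, 226 and 124 FPKM in the controls and 60.05, 46.6 and 84.4 FPKM after knockdown, a call lost under either scaling. DNAJC10 measured 11.7, 25.8 and 23.2 FPKM in the controls and 3.33, 4.20 and 7.17 FPKM after knockdown, and its call was lost with the median of ratios.

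CKS1B was by far the most abundant of the 94 genes. It encodes a small subunit that binds cyclin-dependent kinases and helps the SCF ubiquitin ligase to recognise p27. It measured 4727, 3800.2 and 8843 FPKM in the controls and 21638, 13014 and 34471 FPKM after knockdown, with library 3 the highest and library 2 the lowest of each group. Its gene model has only 240 bases, and CKS1B alone accounted for 0.519%, 0.312% and 0.827% of the fragments of the knockdown libraries. Without it, the 93 others took up 0.668%, 0.496% and 0.876% of the fragments of the controls and 2.34%, 2.04% and 2.19% of those of the knockdown libraries. Of the 16 named genes of mitosis and the cell cycle, 3 more were chosen: CENPU of the kinetochore, the spindle pole protein ASPM, and NCAPD3, a condensin subunit. CENPU measured 62.7, 65.9 and 61.0 FPKM in the controls and 239, 188 and 173 FPKM after knockdown, with controls that hardly varied. Of the list, 8 genes (50%, beside 63.6% over all named genes) were lower by limma, or 2 under either scaling and 5 to 11 with 1 library left out, with the largest falls on the log2(FPKM + 1) scale in CCNE1 and GAS2L3. CCNE1, the cyclin that drives entry into DNA synthesis, measured 202, 275 and 126 FPKM in the controls and 3.46, 19.98 and 10.98 FPKM after knockdown. GAS2L3, which links actin and microtubules, measured 20.04, 25.6 and 24.1 FPKM in the controls and 1.04, 4.51 and 7.23 FPKM after knockdown.

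Transcription and chromatin gave 6 of 55 named genes (10.9%, beside 20.6% over all named genes). NAP1L4, a histone chaperone, measured 8.64, 5.55 and 13.4 FPKM in the controls and 56.6, 56.9 and 39.6 FPKM after knockdown. ASF1A, a chaperone of histones H3 and H4, measured 98.8, 28.7 and 98.3 FPKM in the controls and 289, 96.1 and 649 FPKM after knockdown. ASF1A overlapped: knockdown library 2 lay under controls 1 and 3, and its knockdown libraries differed 6.76-fold, more than those of any other chosen gene. GTF2A2, the small subunit of TFIIA, measured 246, 196 and 472 FPKM in the controls and 1181, 665 and 1787 FPKM after knockdown, so that genes for both parts of this general transcription factor were among the 94 when GTF2A1L is counted. Library 3 was the highest of both groups for GTF2A2. The zinc finger gene ZNF226, the Integrator subunit INTS10 and the interferon regulatory factor IRF8 had ratios of 5.01, 3.13 and 3.42. By limma, 33 of the 55 genes (60%, beside 63.6% over all named genes) were lower, or 15 under either scaling and 25 to 40 with 1 library left out, and ELL2, an elongation factor of RNA polymerase, was among the largest falls, from 67.3, 87.6 and 22.7 FPKM in the controls to 2.50, 3.29 and 2.17 FPKM after knockdown.

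Ubiquitin and proteasome genes gave 5 of 30 (16.7%, beside 20.6% over all named genes). FBXO25, an F-box subunit of a ubiquitin ligase, measured 139, 121 and 117 FPKM in the controls and 418, 531 and 288 FPKM after knockdown. BTRC, the F-box protein that recognises phosphorylated beta-catenin, measured 32.04, 24.5 and 25.6 FPKM in the controls and 104, 83.3 and 78.5 FPKM after knockdown. The controls of both genes were close together, and every knockdown library was at least 2.08 times the highest control. WDR48, MKLN1 and PSMD12 followed with ratios of 2.72, 2.85 and 2.47. WDR48 is a cofactor of deubiquitinating enzymes, and so is WDR20, which was placed in no class and measured 56.9, 40.6 and 128 FPKM in the controls and 253, 471 and 178 FPKM after knockdown. Its knockdown library 2 was the highest, unlike in most of the 94 genes. Of this list, 17 genes (56.7%, beside 63.6% over all named genes) were lower by limma, 8 with an equal sum, 5 with the median of ratios and 14 to 20 with 1 library left out, among them PSMG2, an assembly chaperone of the proteasome, at 80.9, 80.7 and 35.1 FPKM in the controls and 2.79, 5.89 and 10.7 FPKM after knockdown.

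Membrane traffic gave 4 of 23 named genes, SCFD1, which regulates fusion of vesicles with the Golgi, KXD1 of a complex that positions lysosomes, IST1 of the ESCRT machinery, and ARV1 of sterol transport, with ratios from 2.73 to 3.35. Actin and dynein genes gave 3 of 6, the cortactin gene CTTN, ACTR2 of the complex that branches actin filaments, and DYNC1I2, an intermediate chain of cytoplasmic dynein, with ratios of 4.09, 3.19 and 2.84. CTTN measured 5.62, 4.38 and 10.8 FPKM in the controls and 23.7, 26.9 and 34.3 FPKM after knockdown. Signalling gave 3 of 20, the receptor kinases ROS1 and BMPR1B and the phosphatase subunit PPP2R5C, with ratios of 3.94, 3.001 and 2.76. RNA binding and decay gave 2 of 16, ELAVL2, which binds AU-rich mRNAs, and EXOSC8, a subunit of the exosome, the complex that degrades RNA from its 3' end. EXOSC8 measured 316, 212 and 334 FPKM in the controls and 976, 439.6 and 991 FPKM after knockdown. EXOSC3, another subunit of the same complex, went the other way, from 46.0, 122 and 219 FPKM in the controls to 8.19, 24.9 and 16.1 FPKM after knockdown. Most genes of these lists, other than that of actin and dynein, were not chosen. By limma 17 of the 23 genes of membrane traffic, 2 of the 6 of actin and dynein, 10 of the 20 of signalling and 11 of the 16 of RNA binding and decay were lower, beside 63.6% over all named genes. In the same order they were 6, 0, 3 and 9 with an equal sum (26.1%, 0%, 15% and 56.2%, beside 32.7% over all named genes). With the median of ratios they were 4, 0, 1 and 7 (17.4%, 0%, 5% and 43.8%, beside 23.7%). With 1 library left out they were 13 to 16, 1 to 3, 7 to 12 and 11 to 13.

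Several classes contributed 1 gene each, 1 of 13 named in replication and repair (GINS4), 1 of 22 in metabolism (CROT), 1 of 6 in autophagy (ZFYVE1), 1 of 8 in nuclear transport (SEH1L) and 1 of 4 in solute transport (ATP8A1). By limma 9, 20, 3, 6 and 3 genes of these classes (69.2%, 90.9%, 50%, 75% and 75%, beside 63.6% over all named genes) were lower, 6, 11, 2, 4 and 2 with an equal sum, 4, 6, 2, 3 and 2 with the median of ratios, and 7 to 10, 14 to 20, 2 to 4, 5 to 6 and 2 to 3 with 1 library left out. GINS4 belongs to the GINS complex of the replicative helicase and measured 22.7, 10.2 and 32.9 FPKM in the controls and 78.4, 105 and 88.9 FPKM after knockdown. CROT, a carnitine acyltransferase of peroxisomes, measured 199, 126 and 356 FPKM in the controls and 801, 735 and 724 FPKM after knockdown. The knockdown libraries of both genes were close together while their controls varied. ZFYVE1, a protein of the membranes on which autophagosomes form, measured 3.16, 3.80 and 8.78 FPKM in the controls and 18.2, 12.98 and 41.9 FPKM after knockdown. The nucleoporin SEH1L and the phospholipid flippase ATP8A1 had ratios of 2.71 and 2.64. Of the 33 named genes of translation and ribosomes and the 17 of splicing 0 were chosen, and 30 and 15 of these (90.9% and 88.2%, beside 63.6% over all named genes) were lower by limma, 20 and 6 with an equal sum and 16 and 5 with the median of ratios. Under these scalings 32.7% and 23.7% of all named genes were lower, beside 60.6% and 48.5% of the translation genes and 35.3% and 29.4% of the splicing genes. With 1 library left out they were 26 to 31 and 10 to 14. The absence of chosen genes holds for these lists as drawn. Chosen MRPS23, a mitochondrial ribosomal protein, was counted with mitochondria, and chosen PDCD4, an inhibitor of translation initiation, was in no class.

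F2 encodes prothrombin, a plasma protein of the liver. It measured 4.08, 3.99 and 21.6 FPKM in the controls and 53.1, 24.9 and 60.6 FPKM after knockdown. Control 3 nearly reached knockdown library 2, where the groups were separate by a factor of 1.15. Of the 4 genes listed for liver and plasma, F2 was the only one among the named genes of the table, so its level could not be compared with other plasma proteins. Markers of several cell types were also looked up, among them cumulus and granulosa cells and sperm, which can adhere to an embryo. Of 8 cumulus and granulosa genes 2 were among the named genes, KITLG and TNFAIP6, with summed levels of 78.9, 42.1 and 33.2 FPKM in the controls and 25.5, 17.9 and 18.8 FPKM after knockdown, and neither passed the test, although KITLG did without control 3, lower after knockdown. KITLG was the more abundant except in control 3. Of 7 neuronal genes 4 were among the named genes, and all 4 were lower by limma (beside 63.6% of all named genes), or 1 of 4 under either scaling (beside 32.7% and 23.7%) and 2 to 4 with 1 library left out, with summed levels of 73.2, 52.9 and 54.5 FPKM in the controls and 15.1, 18.2 and 19.3 FPKM after knockdown. NPTX2 was the most abundant of them. Of 10 oocyte and germline markers 4 were among the named genes, summing to 319, 242 and 723 FPKM in the controls and 1087, 1513 and 986 FPKM after knockdown, most of it from H1-8. Of these 4, 3 belonged to the 94 genes, so the rise of the sum follows from the choice. The mean of the remaining one, TAF4B, was lower after knockdown. None of the 2 sperm markers was among the named genes. Markers without a symbol here may still be in the table and were not looked up, and the part of other cell types in the levels of the 94 genes was not tested.

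The other 36 genes belonged to none of the lists. ART3, a relative of the ADP-ribosyltransferases, had the second highest ratio. It measured 1.64, 2.66 and 2.88 FPKM in the controls and 24.2, 6.17 and 25.4 FPKM after knockdown, with knockdown library 2 far under the others. PDCD4, an inhibitor of translation initiation, measured 62.3, 12.6 and 17.8 FPKM in the controls and 176, 104 and 68.3 FPKM after knockdown. For PDCD4 control 1 nearly reached knockdown library 3. ADGRG7, an adhesion receptor, measured 18.1, 6.63 and 18.7 FPKM in the controls and 91.8, 61.7 and 36.6 FPKM after knockdown. MPZL1, a cell surface glycoprotein, measured 2.03, 1.55 and 9.06 FPKM in the controls and 21.1, 11.2 and 19.98 FPKM after knockdown. WDR13, a WD repeat protein, measured 6.97, 8.49 and 24.9 FPKM in the controls and 44.8, 49.4 and 74.2 FPKM after knockdown. In both MPZL1 and WDR13, control 3 was the highest control by far. CD200, a surface glycoprotein of the immunoglobulin family, was among the most abundant, with 455, 360.1 and 737 FPKM in the controls and 1257, 1564 and 1082 FPKM after knockdown. UNC119, a carrier of lipid-modified proteins, measured 36.3, 18.3 and 88.7 FPKM in the controls and 128, 87.7 and 245 FPKM after knockdown, and was the other gene with overlap, since knockdown library 2 lay just under control 3. METTL14, a subunit of the RNA N6-adenosine methyltransferase, and TARBP2, a partner of Dicer, had ratios of 2.67 and 2.94. PARP12, another ADP-ribosyltransferase, had a ratio of 3.26. The others were TMEM120B, TOR2A, AADACL3, C12orf29, C12orf50, LRRC34, TMEM9B, SNX29, CDKL2, SHISA5, SPNS3, HSPBAP1, MANEA, ANKRD40CL, STXBP6, GPN3, FAM114A2, CAAP1, ANO4, CLHC1, CLDND1, TMEM225B, TMEM128, LRRC31 and TMEM192.

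**Figure D2:**
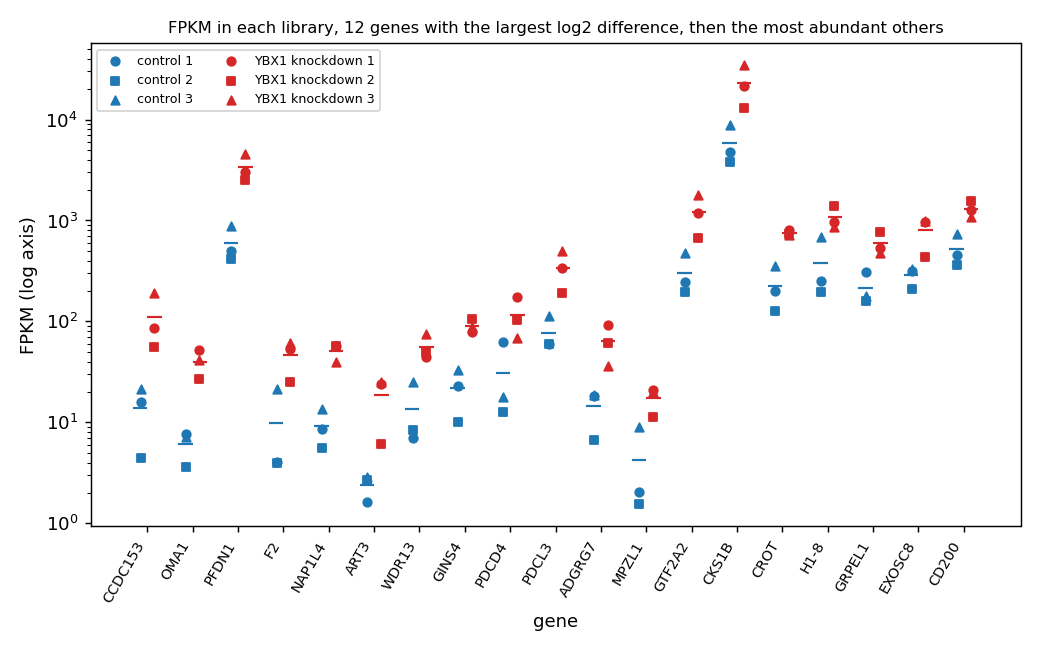
FPKM (log axis) in each of the 3 control (blue) and 3 YBX1 knockdown (red) libraries, with horizontal lines at the group means, for the 12 chosen genes with the largest difference of mean log2(FPKM + 1) and then the other most abundant ones. The groups do not overlap in any gene shown, but the same contrast chose these genes, so nothing is read from it. Over the whole table, 1591 of 5154 genes (30.9%) had every knockdown library above every control. Control 2 is the lowest control in most genes shown.

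**Figure D3:**
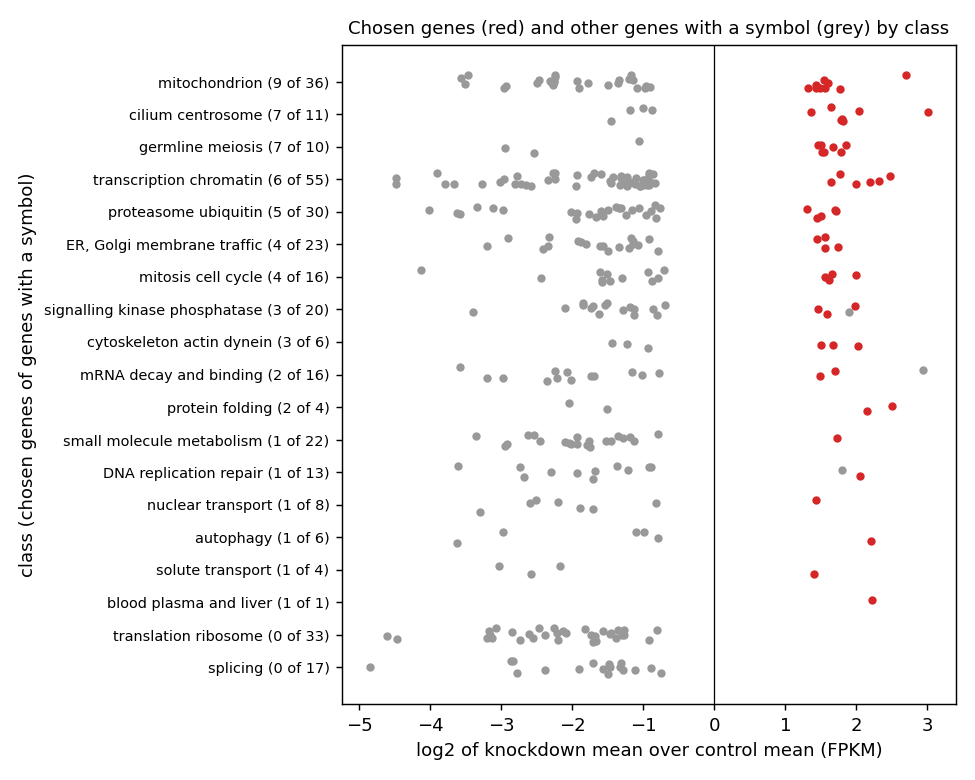
Log2 of the knockdown mean over the control mean for genes with a symbol, by class, with the number chosen of the number named beside each class. Chosen genes are red. The grey points on the right are PATL2, SLX4 and PIK3CD, and the classes of translation and splicing have no point on that side.

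The libraries did not contribute alike. Of the 94 genes, 43 were highest in knockdown library 1, 18 in library 2 and 33 in library 3, whereas over all 1368 genes that met both thresholds the numbers were 418, 326 and 624. The median length of the genes highest in libraries 1, 2 and 3 was 2187, 1220 and 1641 bases, and over the 1368 genes it was 1578, 1856 and 1143 bases, in another order. Among the controls, 53 of the 94 genes were highest in control 3, 37 in control 1 and 4 in control 2, and 66 were lowest in control 2. Of the 1368 genes, 958 were highest in control 3, 360 in control 1 and 50 in control 2, and 1041 (76.1%, beside 70.2% of the 94) were lowest in control 2. The highest and lowest knockdown libraries differed by a median factor of 1.67 and by more than 2 in 29 genes, and the controls by a median factor of 1.93.

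The chosen genes had a median length of 1955 bases, like the 1920 of all named genes and above the 1476 of the 1368 genes that met both thresholds. Of their lengths, 58 (61.7%) were multiples of 3, as were 60.2% over the whole table. A gene model without untranslated regions has such a length, so levels compared between genes depend on what each model covers. Of the 94 genes, 88 matched a symbol of the RefSeq annotation of ARS1.2, and 20 of the 87 placed on a chromosome overlapped another gene there. Overlap was taken from the spans of whole genes, and exons were not compared. No strand was kept in these libraries, so fragments cannot be told apart where overlapping genes share exon sequence. No pair of the 87 placed genes stood side by side, and the genes that were not placed could not be checked.

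By limma on log2(FPKM + 1), over the 4500 genes with a mean of at least 1 FPKM, 1534 genes (34.1%) were higher and 2530 (56.2%) lower after knockdown, counting genes with log2 fold changes above 1 or below -1 whose Benjamini-Hochberg adjusted p was under 0.05. On this scale the change of low genes is understated. All genes of the table had already been called changed by its authors in these same libraries, and the adjustment ran over such genes alone, so these calls and the class counts that rest on them give directions within a selected table and are no independent test of change. Of the 456 named genes 97 were higher and 290 lower, and 149 lower with an equal sum or 108 with the median of ratios. The split moved with the scale between libraries: scaled to an equal sum, 1571 were higher and 1669 lower, and scaled by the median of ratios, 1574 were higher and 1348 lower. The genes of the table held 51%, 56.9% and 48.6% of the fragments of the controls and 35.4%, 36.9% and 38.8% of those of the knockdown libraries. An equal sum sets the sums of FPKM over these called genes alike and the median of ratios centres their ratios, so both remove such a fall by construction, and the counts under them do not show that fewer genes were lower. The scalings raised the median log2 ratio of all genes by 0.70 and 1.0 and that of the 94 genes alike, and 95 genes met the rule under each.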

How the data were processed

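The authors used fastp for trimming, HISAT2 for alignment against goat assembly ARS1, and featureCounts, which counted reads with a unique position. They deposited FPKM values of 5154 genes in 6 libraries. Further columns hold fold changes, p-values and direction from their own DESeq2 comparison and were not used. The tool that computed FPKM is not given in the sources used here. Symbols came from 1130 identifiers paired with a symbol in 1999 skipped exon events, a part of that table, and named 456 genes (8.85%), so the 94 genes are those that could be named. The members and lists were chosen with earlier results of these data known. Fragments, library totals and gene lengths were recovered from the steps between FPKM values (all 5154 genes whole within 0.01). Depths, shares of fragments and gene lengths in the text rest on them, and the FPKM levels and limma calls do not. limma 3.58.1 in R 4.3.3 used an intensity trend without covariates and Benjamini-Hochberg adjustment, and was tested on simulated data. Genes with values in the text were the 4 examples of the rule, the 12 with the largest difference of mean log2(FPKM + 1) and the 8 most abundant. Added to these were up to 4 in each class, those nearest the thresholds and those with overlap. Outside the 94, values were given for some lower genes of some classes, which were not always the largest falls, and for TAF4B. Alternatives were other scalings, pseudocounts, minimums and folds, a replicate block and leaving out each library. Values of 2 genes are not reported here.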

Additional observations from a re-analysis of the deposited data

How the results depend on the processing

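The number of chosen genes stayed between 89 and 96 under both scalings, under a minimum of 1 or 10 FPKM and under the ratio of medians, and between 93 and 94 with 1 library left out at a time, while a ratio of at least 3 left 59. The median log2 ratio of the 94 genes, 1.69, became 2.41 with an equal sum and 2.67 with the median of ratios, because both scalings multiply the knockdown libraries, and lay between 1.54 and 1.79 with 1 library left out. Genes lower by limma fell from 2530 to 1669 with an equal sum and 1348 with the median of ratios, for the same reason. The table's genes held 52.2% of control fragments and 37.0% of knockdown fragments, a difference that scaling on these genes removes by construction, so the drop alone does not show that these genes were unchanged. With 1 library left out they numbered 2193 to 2556 and those higher 1431 to 1534. Among the chosen genes alone, those without overlap numbered 92 to 94. The same contrast chose these genes, so nothing is read from that count. With all libraries kept, 1591 of all 5154 genes (30.9%) had every knockdown library above every control. Replicate numbers did not count as pairs, since the correlations of same-numbered deviations were 0.095, 0.140 and 0.163. Each control correlated best with the knockdown library of its own number. With the replicate block, 1535 genes were higher and 2542 lower. Class counts without each library, chosen after seeing the data, stayed at 7 for cilia and for germline and at 8 or 9 for mitochondria. The table holds called genes only, and named genes are few, so no share describes the transcriptome.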
